A study of Mus musculus with 3 samples.

Results

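Malat1 and Neat1, which stay in the nucleus, were set beside Gas5, Snhg1, Snhg3, Snhg8 and Snhg12, spliced noncoding RNAs whose introns carry small nucleolar RNAs (snoRNAs). The 7 genes were chosen by symbol, and of these Malat1, Neat1, Gas5, Snhg3 and Snhg12 make up 5 of the 20937 genes listed in the count table, while Snhg1 and Snhg8 were not analysed here. They were chosen with the ratios of Stim1 cKO to the controls in these same libraries known, so those ratios describe the 5 genes and no test is attached to them.

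The enamel organ of the mouse incisor, the epithelium that makes enamel together with attached tissue, was dissected whole from male mice aged 4 weeks and sequenced as bulk RNA. Stim1, the calcium sensor of the endoplasmic reticulum, was deleted by AmelX-iCre, a Cre recombinase driven by the amelogenin promoter and so active in ameloblasts, the enamel-forming cells. Stim1 cKO was Stim1 fl/fl Cre+, Stim1 HT was Stim1 fl/wt Cre+ with 1 allele left, and Stim1 Ctrl was Stim1 fl/fl Cre- and so carried the floxed alleles without recombination. Each genotype had 1 library, and the spread between mice could not be measured. The intervals given here cover counting error only, and are 95% Wilson intervals except where stated.

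The libraries held 20216507 to 28265960 counts. Stim1 was at 186 CPM in Stim1 Ctrl, 129 in Stim1 HT and 72.8 in Stim1 cKO (CPM are counts relative to the library size, scaled by TMM factors), the order of the labelled gene dose, although the count is of the whole gene and of all cells in the tissue. The labels give the cells as ameloblasts, and the library labelled Stim1 cKO stood apart from this. Its 4 secretory ameloblast markers, 3 of them over 2-fold below both controls, summed to 3584 CPM against 31173 in Stim1 HT and 23113 in Stim1 Ctrl. Its 5 maturation ameloblast markers ran the other way, with 4 above both controls and 3 of them over 2-fold, and a sum of 912 CPM against 384 and 168. Of 5 enamel epithelium markers 4 were above both controls, with sums of 2862, 1893 and 1735 CPM. Photoreceptor markers, 6 of them analysed and all over 2-fold above both controls, summed to 539 CPM against 12.8 and 11.3. Of 10 neuron markers 9 were over 2-fold above both, and they summed to 1376 CPM against 306 and 202. Skeletal muscle markers were at 4071, 21005 and 30087 CPM with 6 of 8 over 2-fold below both, and mitochondrially encoded genes took 5.20% of the counts against 2.58% and 2.82%. In bulk RNA, fewer cells of a type and less RNA per cell cannot be told apart, and the part of these differences in any result below was not tested. No comparison of Stim1 cKO can be made without this library, which is its only one.

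Malat1 is an abundant long noncoding RNA held at nuclear speckles, the stores of splicing factors, and Neat1 is the scaffold of paraspeckles, nuclear bodies that hold RNA-binding proteins. Both are made from neighbouring genes, are not translated, and the 3′ ends of Malat1 and of the long Neat1 transcript are cut by RNase P at a tRNA-like structure, after which a triple helix of U-rich and A-rich stretches protects the end in place of a poly(A) tail. Gas5, Snhg3 and Snhg12 belong to another kind. Their introns are trimmed into snoRNAs that guide the chemical modification of ribosomal RNA, and the spliced exons leave for the cytoplasm, where translation of short reading frames exposes several of them to nonsense-mediated decay. Gas5 shares with ribosomal protein genes a start in a run of pyrimidines, the 5′ terminal oligopyrimidine tract, which ties translation to growth signals.

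The sequences that separate the 2 kinds are shown first. On GRCm38 (GENCODE M21), Malat1 lies at chr19:5795690-5802672 and Neat1 at chr19:5824708-5845478, both on the minus strand and both lincRNA genes. These are the 3′ end stretches that form the triple helix, in the sense orientation, with exact matches to the U-rich TTTTTCTTTT and TTTTGCTTTT and to AAAAAGCAAAA, the end of the A-rich tract, in capitals. TTTTTCTTTT is matched in the Malat1 stretch and not in that of Neat1.
Malat1-201, chr19:5795982-5796072: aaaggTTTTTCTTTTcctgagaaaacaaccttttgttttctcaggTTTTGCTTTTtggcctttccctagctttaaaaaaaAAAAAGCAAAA
Neat1-201, chr19:5824708-5824798: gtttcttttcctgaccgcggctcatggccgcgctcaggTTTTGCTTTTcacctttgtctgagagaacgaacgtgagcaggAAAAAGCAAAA
The annotated long Neat1 transcript of 20771 bases ends at the last A shown, and the annotated Malat1 transcript of 6983 bases runs on for 292 bases. The motif TTTTGCTTTT followed within 100 bases by AAAAAGCAAAA, searched on the sense strand, was found in 4 of 141767 GENCODE transcripts (0.00282%), which belong to Malat1, Neat1 and Retreg3. A match of letters is a description and shows no structure. The short Neat1 transcript of 3004 bases ends instead behind a poly(A) signal, in capitals here.
Neat1-202, chr19:5842307-5842346: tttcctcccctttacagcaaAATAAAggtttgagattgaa
Libraries were enriched for poly(A) RNA, per the methods of the study, and gene counts pool the short and long Neat1 transcripts, so the levels below do not tell them apart.

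The start sites of the hosts are shown from 40 bases before to 20 bases from the first transcribed base, from RefSeq on GRCm38.p6, with a run of at least 5 pyrimidines (C or T) over the first base in capitals, and that of Malat1 for contrast.
Gas5, chr1:161035126-161035185, plus strand: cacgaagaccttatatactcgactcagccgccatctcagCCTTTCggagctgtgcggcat
Snhg12, chr4:132308638-132308697, plus strand: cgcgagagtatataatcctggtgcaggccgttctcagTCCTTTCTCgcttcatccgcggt
Snhg3, chr4:132353667-132353726, minus strand: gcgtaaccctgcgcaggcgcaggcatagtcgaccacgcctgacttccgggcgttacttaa
Malat1, chr19:5802653-5802712, minus strand: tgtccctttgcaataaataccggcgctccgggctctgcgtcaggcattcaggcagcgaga
Of the 32851 promoters of this length, 10.1% had such a run on the sense strand. Gas5 had 1 of 6 bases and Snhg12 1 of 9 bases, while Snhg3 and Malat1 had none over the first base given. Both runs begin before the first transcribed base, so these lengths are not those of a tract in the RNA. Gas5 had 2 start entries, of which 1 is shown. Of the 7 genes, 6 matched an entry, and Neat1 did not.

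What the hosts carry is shown by 1 intronic snoRNA of Gas5 and 1 of Snhg12, with box C (TGATGA) and box D (CTGA), the protein-binding motifs of this snoRNA class, in capitals.
Snord47, chr1:161038082-161038158, in Gas5: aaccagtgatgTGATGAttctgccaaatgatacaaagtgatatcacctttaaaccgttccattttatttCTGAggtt
Snord99, chr4:132310691-132310764, in Snhg12: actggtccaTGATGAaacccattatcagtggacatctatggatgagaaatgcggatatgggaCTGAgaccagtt
Gas5 (chr1:161034422-161038539, plus strand) spans 10 annotated snoRNA genes, Snhg12 (chr4:132308623-132311024, plus strand) 5 and Snhg3 (chr4:132348014-132353686, minus strand) 2.

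All 5 genes were higher in Stim1 cKO than in either control, and they fell into 2 ranges. The nuclear pair was 3.90- to 7.70-fold higher than a control, and the hosts 1.27- to 2.94-fold. More than 2-fold above both controls were 3 of the 5, Malat1, Neat1 and Snhg3, beside 14.3% of the 14977 genes that averaged 50 counts or more, and the 5 of 5 above both controls by any size stand beside 38.3%. None was more than 2-fold below both, where 8.36% of genes were. Since the genes were chosen with these ratios known, nothing is read from those shares.

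Malat1 gave 145091 counts in Stim1 cKO, against 20277 in Stim1 HT and 20023 in Stim1 Ctrl. As a share of all counts this was 0.675% (0.672 to 0.678), 0.100% (0.0989 to 0.102) and 0.0708% (0.0699 to 0.0718). Malat1 was the gene of rank 6 by counts in Stim1 cKO, and of rank 67 and 106 in the controls. On TMM-scaled CPM its level was 5994, 1029 and 778, which made Stim1 cKO 5.82-fold higher than Stim1 HT (5.74 to 5.91) and 7.70-fold higher than Stim1 Ctrl (7.59 to 7.82). The controls lay 1.32-fold apart, so the step to Stim1 cKO was larger than the step between them.

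Neat1 followed at a lower level, with 16867 counts in Stim1 cKO against 2755 in Stim1 HT and 4603 in Stim1 Ctrl. Its CPM was 697, 140 and 179, its rank 82, 1220 and 953. Stim1 cKO was 4.98-fold higher than Stim1 HT (4.79 to 5.19) and 3.90-fold higher than Stim1 Ctrl (3.77 to 4.02). Neat1 was the only 1 of the 5 that was lower in Stim1 HT than in Stim1 Ctrl, by a log2 ratio of -0.35.

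Among the hosts Gas5, named for its rise in growth-arrested cells, was the most abundant. It gave 5078, 3182 and 3104 counts, or 210, 162 and 121 CPM, in Stim1 cKO, Stim1 HT and Stim1 Ctrl. Stim1 cKO was 1.30-fold above Stim1 HT (1.24 to 1.36) and 1.74-fold above Stim1 Ctrl (1.66 to 1.82). Stim1 HT was itself 1.34-fold above Stim1 Ctrl (1.27 to 1.41), as large a step as that from Stim1 HT to Stim1 cKO, so for Gas5 the Stim1 cKO level did not stand clear of the spread between the controls.

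Snhg12, which carries snoRNAs of both the box C/D and the box H/ACA class, behaved like Gas5. Its counts were 432, 276 and 241 and its CPM 17.8, 14.0 and 9.37. The ratio of Stim1 cKO to Stim1 HT was 1.27 (1.10 to 1.48), to Stim1 Ctrl 1.91 (1.63 to 2.23), and that of Stim1 HT to Stim1 Ctrl 1.50 (1.26 to 1.78).

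Snhg3, the host of Snora73a and Snora73b, was the host with the widest difference. It gave 467 counts in Stim1 cKO against 158 and 169, or 19.3 CPM against 8.02 and 6.57. Stim1 cKO was 2.41-fold above Stim1 HT (2.01 to 2.88) and 2.94-fold above Stim1 Ctrl (2.46 to 3.50). The ratio of the controls was 1.22, with an interval of 0.984 to 1.52 that includes equal levels.

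**Figure D1:**
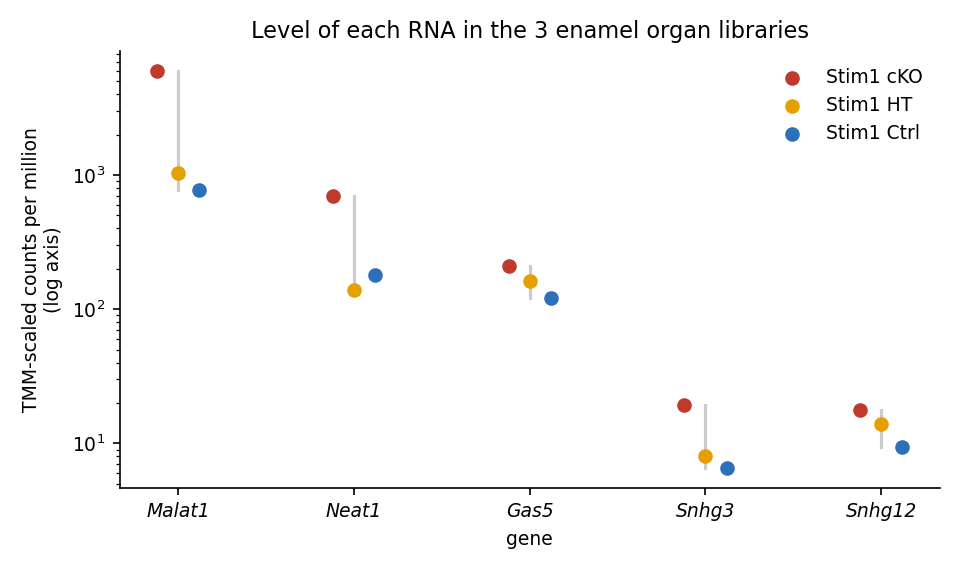
TMM-scaled CPM (log axis) of each RNA, 1 point per library and a grey line over their range. The Stim1 cKO point is the highest for all 5 genes, at 5994 against 1029 and 778 for Malat1, and Gas5 and Snhg12 show the narrowest ranges.

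**Figure D2:**
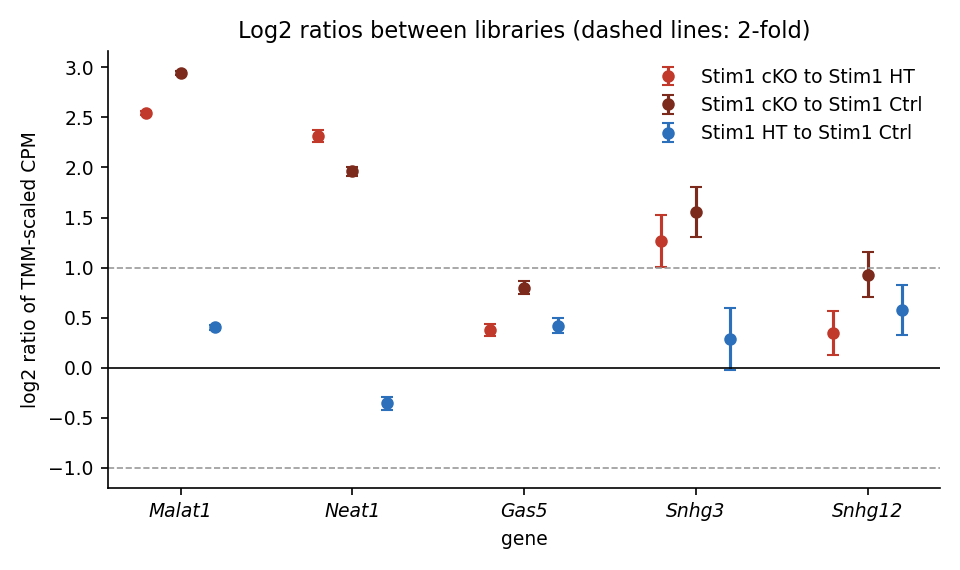
Log2 ratios of TMM-scaled CPM between pairs of libraries, with 95% Wilson intervals of counting error as bars and dashed lines at 2-fold. Malat1 and Neat1 lie between 1.96 and 2.95 for Stim1 cKO against a control, while Stim1 HT against Stim1 Ctrl stays within 0.58 for each gene.

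Levels can be compared between genes only per length of exon. Per kilobase of exon union, Malat1 stood at 858 CPM in Stim1 cKO, with 147 in Stim1 HT and 111 in Stim1 Ctrl. Gas5 came next at 55.8, 43.0 and 32.1, and Neat1, whose counts are spread over 20.771 kb, at 33.5, 6.73 and 8.61. Snhg3 had 19.6, 8.13 and 6.66, and Snhg12 had 7.43, 5.83 and 3.90. Malat1 was the highest, Gas5 the next and Snhg12 the lowest of the 5 in each library, with Neat1 and Snhg3 between. In Stim1 HT Snhg3 was above Neat1, at 8.13 against 6.73 CPM per kilobase, and in the other two libraries below it. For Neat1 the length is that of the long transcript, which most reads need not come from. For Snhg12 the exon union of 2402 bases covers the whole span of the gene, and for Gas5 it covers 3760 of 4118 bases. For Snhg3 it covers 986 of 5673 bases. The order of the hosts per kilobase depends on these annotated lengths, which need not be those of the spliced RNAs. Malat1 and the long Neat1 transcript end without a poly(A) tail. How far poly(A) enrichment captured them beside the hosts was not tested.

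Ratios of 2 genes inside a library do not depend on how libraries are scaled. They do depend on how each RNA was captured, which was not tested. Malat1 gave 28.6 counts for each count of Gas5 in Stim1 cKO (27.8 to 29.4), and 6.37 (6.14 to 6.62) and 6.45 (6.21 to 6.70) in the controls, whose intervals overlap. Neat1 to Gas5 was 3.32 in Stim1 cKO against 0.866 in Stim1 HT and 1.48 in Stim1 Ctrl. Malat1 to Neat1 was closer, at 8.60, 7.36 and 4.35, where the control values differed from each other by more than Stim1 cKO did from Stim1 HT. The hosts Snhg12 and Gas5 kept their ratio, at 0.0851 (0.0771 to 0.0938), 0.0867 (0.0767 to 0.0981) and 0.0776 (0.0681 to 0.0885), with all 3 intervals overlapping. Snhg3 to Gas5 was 0.0920 (0.0837 to 0.101) in Stim1 cKO and 0.0497 and 0.0544 in the controls.

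**Figure D3:**
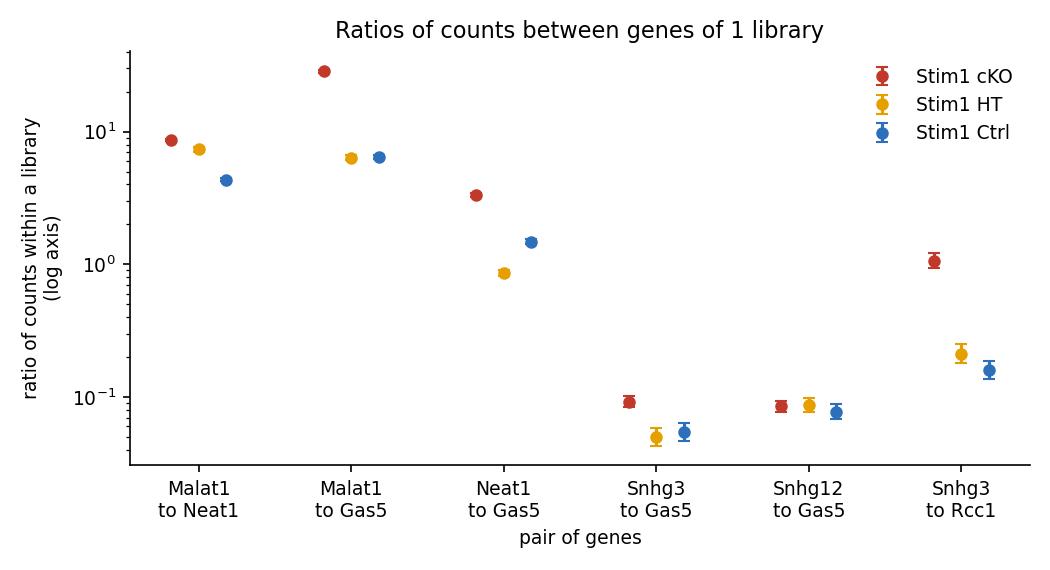
Ratio of the counts of 2 genes within each library (log axis), with 95% Wilson intervals. Malat1 to Gas5 is 28.6 in Stim1 cKO and 6.37 and 6.45 in the controls, while Snhg12 to Gas5 is between 0.0776 and 0.0867 in all 3 libraries.

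Taken as kinds, the mean log2 ratio of Malat1 and Neat1 to the geometric mean of both controls was 2.44 and the median of the 3 hosts was 0.64. The difference was 1.80 (1.62 to 1.99 from counting error), and it was 2.05 against Stim1 HT alone and 1.52 against Stim1 Ctrl alone. Between the controls it was -0.40, since Stim1 HT exceeded Stim1 Ctrl in all 3 hosts and in Malat1 but not in Neat1. The 2 kinds came closest against Stim1 Ctrl, where the log2 ratio of Neat1 was 1.96 and that of Snhg3 1.55.

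The 2 fits differed in what they called. DESeq2, at an adjusted p under 0.01 and a fold change over 2, called 2 of the 5 genes, Malat1 and Neat1, as higher in Stim1 cKO than in the grouped controls, beside 6.3% of the 17283 genes it tested. edgeR called none of the 5 at the same thresholds, beside 0.0749% of 18702 genes, which is 14 genes, while 5961 genes had an unadjusted p under 0.05. Both fits take their spread from Stim1 HT against Stim1 Ctrl alone. None of the 5 was more than 2-fold apart between the controls, where 8.16% of genes were, and 4 of the 5 were higher in Stim1 HT. Of the 14977 genes, 836 had a larger mean log2 ratio than Malat1, 1186 than Neat1, 1902 than Snhg3, 3568 than Snhg12 and 3777 than Gas5.

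The genes with at least 1000 counts on average whose 3 levels were most like those of Malat1 were Kif5c, a neuronal kinesin motor, Krt16, an epithelial keratin, and Pcdh17, a protocadherin. Likeness was the Euclidean distance over the log2 ratios of Stim1 cKO to Stim1 HT and of Stim1 HT to Stim1 Ctrl, over 3 libraries, and was 0.06, 0.06 and 0.15. Kif5c had 136, 22.4 and 17.1 CPM. For Neat1 they were Ncam1, a neural cell adhesion molecule, Tnrc6a, a partner of Argonaute, and Sobp, at distances of 0.10, 0.12 and 0.12. Ncam1 had 667, 126 and 168 CPM. Gas5 was most like Gm23935, Snrpb2, a protein of the U2 snRNP, and Fkbp2, at 0.03, 0.05 and 0.06. Within a distance of 0.2 lay 5 genes for Malat1, 7 for Neat1 and 36 for Gas5.

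Several of the 5 genes share sequence with neighbours, and whether the counting used strand is not given in the sources used here. In GENCODE M21, annotated exons of Gas5, Snhg12 and Snhg3 overlap snoRNA genes on the same strand, such as Snord47, Snord99 and Snora73a. Counts of these hosts may therefore hold reads of introns and snoRNAs, which was not tested. The overlapping genes below were chosen after their values were seen. Exons of Snhg3 overlap Rcc1, the coding gene for a nucleotide exchange factor of Ran, on the same strand. Rcc1 gave 1060 counts in Stim1 Ctrl, 744 in Stim1 HT and 437 in Stim1 cKO, and so was lowest where Snhg3 was highest. The ratio of Snhg3 to Rcc1 counts was 1.07 (0.938 to 1.22) in Stim1 cKO, against 0.212 (0.179 to 0.252) in Stim1 HT and 0.159 (0.136 to 0.188) in Stim1 Ctrl, and how reads shared by the pair were assigned is not known. Gm37376, on the strand opposite to Malat1, had 80, 18 and 23 counts. Without strand, reads of Malat1 and Gm37376 cannot be told apart, and its counts are few beside those of Malat1. Gm17300, opposite to Snhg3, had 5, 1 and 1.

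The snoRNAs themselves, which have no poly(A) tail, were thinly covered. The table listed 38 genes with a snoRNA symbol, which summed to 1300, 462 and 527 counts in Stim1 cKO, Stim1 HT and Stim1 Ctrl, and 2 of them averaged 50 counts or more. By GENCODE class, which adds genes with other symbols, 96 snoRNA genes were listed, and 3 of them averaged 50 counts or more. DESeq2 called 6 of the 22 it tested as higher, beside 6.3% of all genes it tested. Of the snoRNAs hosted by the 3 genes, Snora73b (in Snhg3) had 23, 6 and 18 counts and Snora16a (in Snhg12) 8, 7 and 8. With such counts no difference between libraries was detectable for Snora16a, and reads there cannot be told apart from those of the host.

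Other noncoding host genes were next examined, 11 of 16 genes being listed. They were mostly snoRNA hosts, but included Mir17hg, a host of microRNAs, with 194, 77 and 128 counts. The list left out Rian, a snoRNA host that was set among the other long noncoding RNAs and was called as lower there. Both were named after their values were seen. The median of their log2 ratios (Stim1 cKO over the geometric mean of both controls) was 0.89, against 0.01 over all 18702 genes tested. By GENCODE class, the median over tested genes was 0.92 for lincRNA genes, 0.85 for processed transcripts and -0.07 for protein-coding genes. The median of these hosts was thus near those of all noncoding genes tested in these 2 classes, many of which had few counts. Among genes averaging 50 counts or more, the class medians were lower than that of the hosts. They were 0.60 for lincRNA genes and 0.56 for processed transcripts. Of the 11 hosts, 9 were above both controls and 2 below both, beside 43.6% and 42.1% of all genes tested. Of the 10 that averaged 50 counts or more, 2 were over 2-fold above both, where 14.3% of genes were. The highest, and the most abundant in Stim1 cKO, was Snhg11, a host expressed in neurons, at 5146 counts in Stim1 cKO against 206 and 257, a log2 ratio of 4.38. The most abundant in the controls was Snhg18, at 746, 856 and 1033 counts. The lowest of the 11 was Snhg5, at 457 counts against 589 and 692, a log2 ratio of -0.59. DESeq2 called 2 of the 11 as higher and none as lower, beside 6.3% and 5.26% of all genes it tested. The 2 hosts called were Snhg11 and Snhg14, the host at the Prader-Willi locus, with 762, 81 and 74 counts, which was named after its values were seen.

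Hosts that code for proteins were more often below the controls than above them. Of 21 ribosomal protein genes with intronic snoRNAs, which like Gas5 start in pyrimidine tracts, none was above both controls, 14 were below both and 7 lay between. Over all genes tested, 43.6% were above both controls and 42.1% below both. The median log2 ratio of the 21 was -0.50. It was -0.81 against Stim1 HT and -0.13 against Stim1 Ctrl, so the controls themselves differed by 0.67 in this list. The lowest was Rps2, at 531, 1292 and 1070 CPM, a log2 ratio of -1.15, and the highest Rpl13a, at 1235, 1341 and 483 CPM, a log2 ratio of 0.62. DESeq2 called 2 of the 21 as lower, Rps2 and Rpl10, beside 5.26% of all genes it tested. The noncoding hosts Gas5 and Snhg12 were above both controls where no ribosomal protein host was. Of 14 other coding hosts, 4 were above and 10 below both controls with a median of -0.41, from Taf1d at 1.15, a subunit of a factor for RNA polymerase I, to Eef2 at -1.18, the translocation factor of the ribosome, and DESeq2 called 3 as lower, Eef2, Rack1 and Hspa9. Rpl10, Rack1 and Hspa9 were named after their values were seen.

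The proteins that package snoRNAs lay near the background. Of 12 snoRNP genes 5 were above and 6 below both controls, with a median of -0.14. The range ran from Snu13, which binds the box C/D motif, at -0.85 to Nop58, a core protein of the same particle, at 0.56. None was called by DESeq2. For this list and the protein lists that follow, the shares over all genes tested were 43.6% above both controls and 42.1% below both. DESeq2 called 6.3% of all genes it tested as higher and 5.26% as lower, so few calls would stand in lists of this size at those shares.

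The partners of Neat1 and Malat1 did not share their ratios. Of 16 paraspeckle proteins 3 were above both controls and 9 below, the median was -0.07, and none was called. Nono, which binds Neat1 and is among the essential paraspeckle proteins, had 151, 261 and 293 CPM, the lowest of the list at -0.87. The highest was Cpsf6, of the cleavage factor that acts on the choice of poly(A) site, at 137, 90.1 and 93.9 CPM. Of 14 nuclear speckle proteins 6 were above and 6 below, with a median of 0.03. The highest was Acin1 at 1.14, the only 1 of the 14 called, beside 6.3% of all genes called as higher. The most abundant was Son, the core scaffold of speckles, at 760, 407 and 436 CPM. The lowest was Prpf8, the central protein of the spliceosome, at -0.67.

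Enzymes of 3′ end formation and nuclear decay were examined as well, from RNase P, RNase Z, the nuclear exosome and its adaptors. Of 26 genes 6 were above and 13 below both controls, with a median of -0.16. Dis3, the exosome nuclease, was the lowest at -0.87. The highest was Rpp25, a small RNase P subunit, at 85 counts against 4 and 6, where the control values are near the floor of 3 counts. DESeq2 called 1 of the 26, as higher, beside 6.3% of all genes it tested. The 1 called was Pabpn1, the nuclear poly(A)-binding protein, at 59.4 CPM in Stim1 cKO and 24.6 and 22.4 in the controls, a log2 ratio of 1.34. Of 14 genes of nonsense-mediated decay 5 were above and 5 below both controls, with a median of -0.02. Upf3b, which bridges the exon junction complex to the decay machinery, was the highest at 1.61, with 123, 42.5 and 38.2 CPM, and the only 1 called. The lowest was Smg8, a regulator of the Smg1 kinase, at -0.77.

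**Figure D4:**
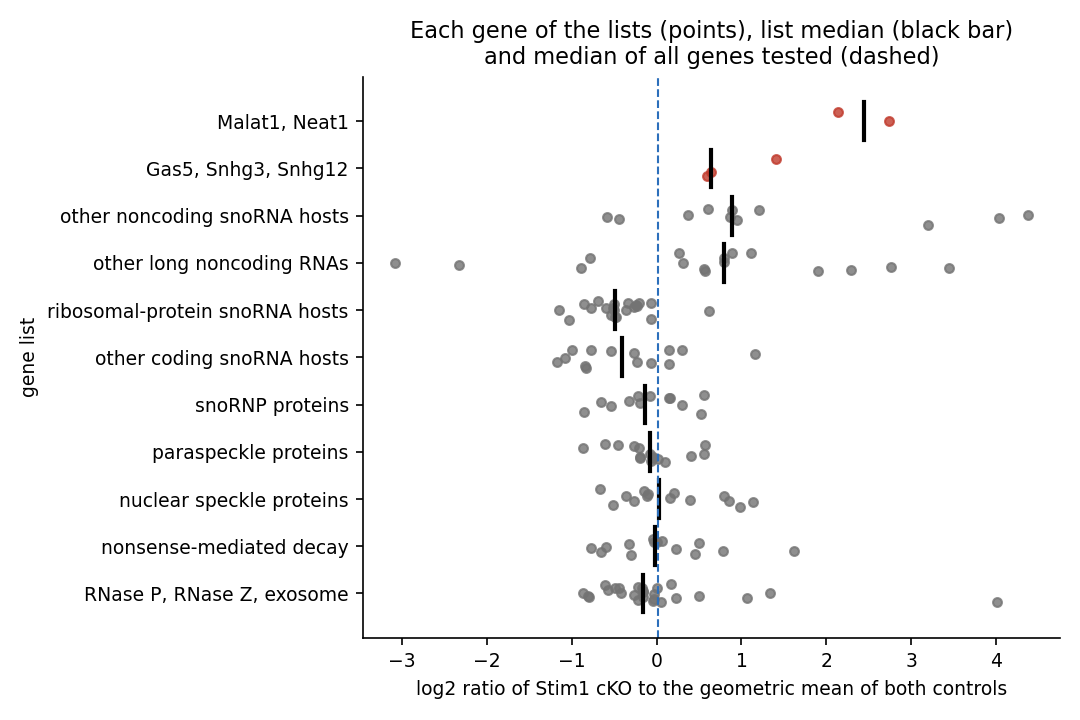
Log2 ratio of Stim1 cKO to the geometric mean of both controls for each gene (points) of the lists, with the list median as a black bar and the median of all genes tested, 0.01, as a dashed line. Noncoding hosts and other long noncoding RNAs have medians of 0.89 and 0.79, coding hosts of -0.50 and -0.41, and the protein lists lie between -0.16 and 0.03.

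The 2 kinds were also set beside other transcripts of their GENCODE class. Among genes averaging 50 counts or more, 33.9% of the 112 lincRNA genes and 30.0% of the 110 processed transcripts were over 2-fold above both controls, against 13.1% of the 14201 protein-coding genes. The share was 76.9% of 13 sense intronic genes and 90.0% of 90 TEC genes, unspliced models that often lie within introns. TEC genes summed to 1425 CPM in Stim1 cKO, against 171 in Stim1 HT and 168 in Stim1 Ctrl. Malat1 and Neat1 lay above the upper quartile of lincRNA genes, which was 1.57, while Snhg12, a lincRNA by class, lay near their median of 0.60. Gas5 was near the median of processed transcripts, 0.56, and Snhg3 just under their upper quartile of 1.44. Unspliced and neuronal transcripts moved in the same direction as the nuclear pair, and their part in it was not tested.

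**Figure D5:**
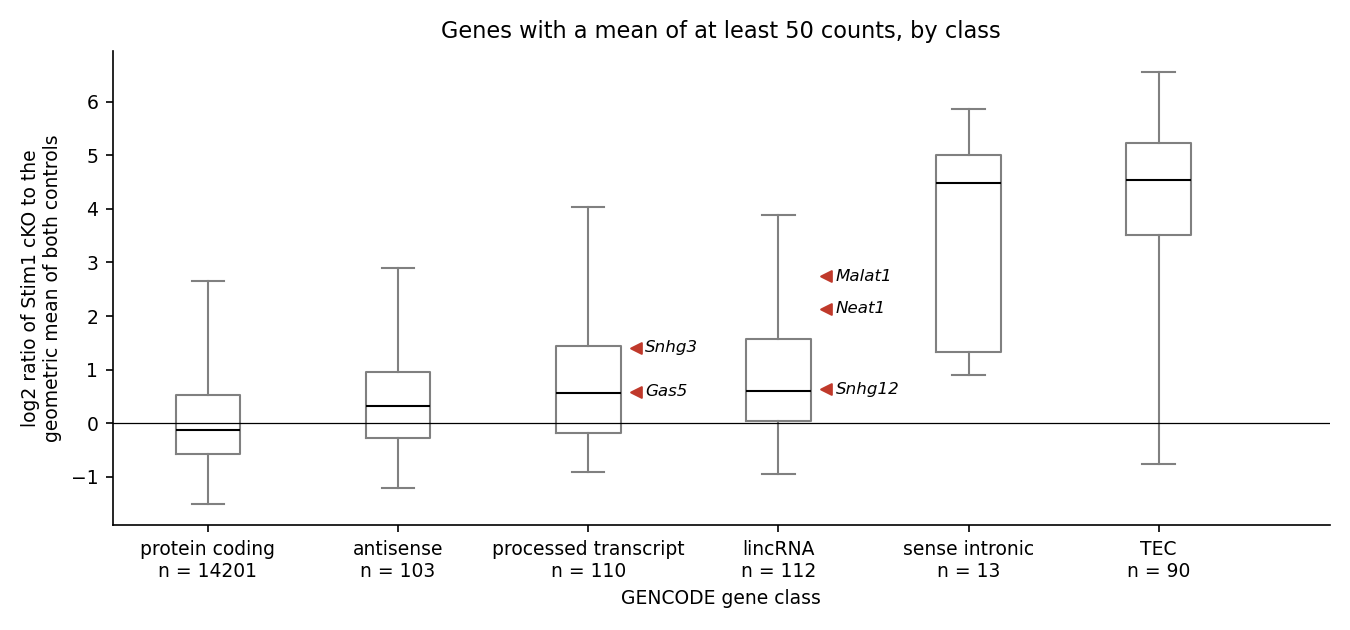
Log2 ratio of Stim1 cKO to the geometric mean of both controls by GENCODE class, for genes averaging 50 counts or more (box: quartiles, line: median, whiskers: 5th to 95th percentile), with the 5 RNAs beside the box of their class. Medians rise from -0.13 in protein-coding genes to 4.53 in TEC genes, and Malat1 and Neat1 lie above the box of lincRNA genes.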

How the data were processed

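RNA of 3 whole incisor enamel organs was sequenced (1 library per genotype). Per the methods of the study, reads were checked with FastQC and aligned with STAR, and the authors deposited raw counts per gene symbol, unnormalized. Genome build, annotation, counting tool and strand setting are not given in the sources used here. The study names a directional poly(A) kit and the labels a SMARTER kit. The table lists genes with at least 1 count in every library, 20937 in all, of which 20712 symbols were found in GENCODE M21.

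The 7 genes and all lists were chosen with earlier results of these data known. Stim1 cKO was tested against grouped Stim1 HT and Stim1 Ctrl with edgeR 4.0.16 (TMM, filterByExpr, quasi-likelihood, Benjamini-Hochberg) in R 4.3.3, and with DESeq2 1.42.0 as the alternative, at an adjusted p under 0.01 and a fold change over 2. The fits were tested on simulated data. Ratios used TMM-scaled CPM without pseudocount. Lists are given by counts and medians, naming the highest, lowest and most abundant genes, and others only where the text says that they were chosen after their values were seen or, for genes DESeq2 called, as the members of a count. A floor of 3 counts was 0.117 to 0.152 CPM. Python 3.11.15, pandas 2.3.3 and scipy 1.17.1 were used. An item of a marker list is not reported here.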

Additional observations from a re-analysis of the deposited data

How the results depend on the processing

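Each of the 5 RNAs stayed above the controls under all 9 alternatives, at log2 ratios of 2.54 to 3.00 for Malat1, 1.96 to 2.40 for Neat1, 0.38 to 0.85 for Gas5, 1.27 to 1.67 for Snhg3 and 0.35 to 0.93 for Snhg12. Library size scaling alone raised the median of all genes by 0.26 and upper-quartile scaling by 0.13. Malat1, Neat1 and Snhg3 made the count of 3 over 2-fold above both controls under every scaling, and without either control. Over all genes 3387 were over 2-fold beyond both controls, and 4040 to 4664 against 1 control alone. The nuclear minus host difference of 1.80 was 1.56 with the mean of the hosts and 2.02 from summed counts, and 1.52 to 2.05 without Stim1 HT or Stim1 Ctrl. Of 9 gene lists 3 had a median above that of all genes, and 2 to 4 without a control. The number of genes called in Stim1 cKO, 14 with edgeR, depended on each choice: 1998 with DESeq2, 50 with RLE and 138 with upper-quartile factors, 6 with library size only, 907 with no filter, 6 at a mean of at least 50 counts and 1811 at an adjusted p under 0.05. The cause was not tested. With 1 control left out, 1 library stood against 1, with no residual degrees of freedom, and no count of calls could be had. No paired analysis was possible because each genotype has 1 library.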

Other observations

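Other long noncoding RNAs went in both directions. Of the 16 listed, 15 were tested. Above both controls were 11, below both 3 and between 1, beside 43.6% above and 42.1% below over all genes tested. Their median log2 ratio was 0.79, against 0.92 for lincRNA genes and 0.85 for processed transcripts tested. Among genes averaging 50 counts or more, as 14 of the 15 did, the class medians were 0.60 and 0.56. DESeq2 called 4 as higher (Kcnq1ot1, Miat, Dleu2 and Meg3) and 2 as lower (H19 and Rian), beside 6.3% and 5.26% of all genes it tested. Kcnq1ot1, the antisense RNA that silences an imprinted cluster, was the highest at 9460 counts in Stim1 cKO against 702 and 933, a log2 ratio of 3.44. H19, an imprinted RNA abundant in fetal tissue and muscle, was the lowest, and the most abundant in both controls, at 35543 counts against 200222 and 392384, a log2 ratio of -3.08. Skeletal muscle markers, of which 6 of 8 were over 2-fold below both controls, moved in the same direction as H19, and their part was not tested.

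Miat, Dleu2, Meg3, Rian and Mirg were chosen after their values were seen. Meg3 and Rian are maternally expressed RNAs of the same imprinted cluster and went opposite ways. Rian is also a snoRNA host, and was not in the list of hosts above. Meg3 gave 79027 counts in Stim1 cKO against 13303 and 28898, and Rian 6052 against 18891 and 42248. Stim1 HT gave fewer counts than Stim1 Ctrl for both. Mirg, of the same cluster, had 54.6, 27.3 and 50.4 CPM.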
